A study of Drosophila melanogaster with 2 samples.

Results

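Binding of Polycomb-like (Pcl) was examined at 4 stretches of chromosome arm 2L that are named for neighbouring, related zinc-finger genes. The odd window (3550000 to 3640000) is named for drm, sob and odd, the salm window (11400000 to 11540000) for salm and salr, the sna window (15300000 to 15500000) for esg, wor and sna, and the tsh window (21780000 to 22030000) for tsh and tio. The members are the peaks on 2L whose centre lies inside a window. They numbered 25 of the 388 peaks on 2L and of the 2457 peaks in the whole list. All positions are on build BDGP5 (Release 5 of the fly genome), counted from 1.

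The values come from chromatin immunoprecipitation and sequencing (ChIP-seq) of Pcl in whole Drosophila melanogaster embryos collected 0 to 8 h after egg laying. The labels give 1 ChIP sample, precipitated with the antibody KW4-Pcl-D2, whose title joins replicate numbers 1, 2 and 3, and 1 input sample of the same stage, which is not analysed here. They name the iso1 strain (y; bw cn sp) or transgenic flies and do not say which gave this sample, and they list no treatment. A single peak list stands for the ChIP group, so no value below has a replicate error, and no difference between windows was tested. Whole embryos hold many cell types, so fewer cells with binding and weaker binding in each cell cannot be told apart. Sequencing depth is unknown.

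Polycomb group proteins keep developmental genes silent in cells where those genes should be off. PRC2 methylates lysine 27 of histone H3, and Pcl is a partner of PRC2 that promotes this methylation. In flies the complexes are recruited to Polycomb response elements, short regulatory sequences that often lie near genes for transcription factors. The 10 genes named by the windows encode such factors, all with zinc fingers, and the members of a window are paralogues. The gene odd is a pair-rule segmentation gene, sob is its sister gene, and drm acts in the developing foregut and hindgut. The spalt genes salm and salr act in tracheal and wing patterning, and salm also in the head and tail of the embryo. The Snail family genes are sna, which drives mesoderm formation at gastrulation, esg, which maintains diploid imaginal cells, and wor, which acts in neuroblasts. The gene tsh gives trunk segments their identity, and tio is its paralogue.

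The genes were matched by symbol to the RefSeq table of Release 6, and 10 of 10 matched. That table was used for gene order only, since it is of another build. In it no protein-coding gene lies between sob and odd or between salr and salm. A single protein-coding gene (CG43815) lies between drm and sob, and likewise CG4161 lies between wor and sna. Between esg and wor there are 2 (CG15258 and CG44869), and between tsh and tio there are 7. No Release 5 gene positions were used here, so whether every named gene lies inside its window is not known, and no peak was assigned to a gene. The doubt concerns drm and salr: in the Release 6 table both are listed at numbers below the start of the windows named for them, and the other 8 genes at numbers inside their windows. The builds were not converted into each other, so this does not place the genes. The peaks of the odd and salm windows may thus leave out those nearest to drm and salr. Because of this, peaks up to 50 kb outside each window are also described.

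The windows differed in how many Pcl peaks they held. The odd window held 6 peaks in 90 kb, the salm window 6 in 140 kb, the sna window 3 in 200 kb and the tsh window 10 in 250 kb. Per 100 kb this gave 6.67 peaks in the odd window (95% exact Poisson interval 2.45 to 14.5), 4.29 in the salm window (1.57 to 9.33), 4.0 in the tsh window (1.92 to 7.36) and 1.5 in the sna window (0.309 to 4.38). The intervals cover counting error only and treat neighbouring peaks as independent. The 4 intervals overlap each other, and the differences between windows were not tested. The rest of 2L held 363 peaks, or 1.72 per 100 kb (1.55 to 1.91) of arm, taken between its outermost peaks and without the 680 kb of the windows. The lower bounds of the odd and tsh windows lay above that value, that of the tsh window just so, whereas those of the salm and sna windows lay below it. This depended on the edges. With edges moved in by 10 kb the lower bound was 1.56 for the odd, 1.79 for the tsh and 1.83 for the salm window. With edges moved out by 20 kb it was 2.16, 1.65 and 1.92. The lower bound of each of these 3 windows was thus above 1.72 under some edges and below it under others. The lower bound of the sna window was below 1.72 under each of these edges.

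The same counts can be set beside the arm cut into equal bins. Only full bins were counted, so at every bin length the last peak of 2L, which is in the tsh window, was left out. The bins include the other peaks of the windows themselves. Of 220 bins of 100 kb along 2L, 67 held no peak, the median bin held 1 and the fullest held 16. In bins of each window's own length, at least 6 peaks were found in 4.51% of 244 bins of 90 kb and in 10.2% of 157 bins of 140 kb, at least 10 peaks in 11.4% of 88 bins of 250 kb, and at least 3 peaks in 52.7% of 110 bins of 200 kb. The odd window thus had a count that few bins of the arm reached, and the window of esg, wor and sna had the count of a common bin. Together the windows held 6.44% of the peaks of 2L (95% exact binomial interval 4.21 to 9.36) on 3.12% of its span. This interval also treats peaks as independent, although 14 of the 25 members lay under 10 kb from another member. The windows were chosen with earlier results of these data known, and the difference between the 2 shares was not tested.

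**Figure D1:**
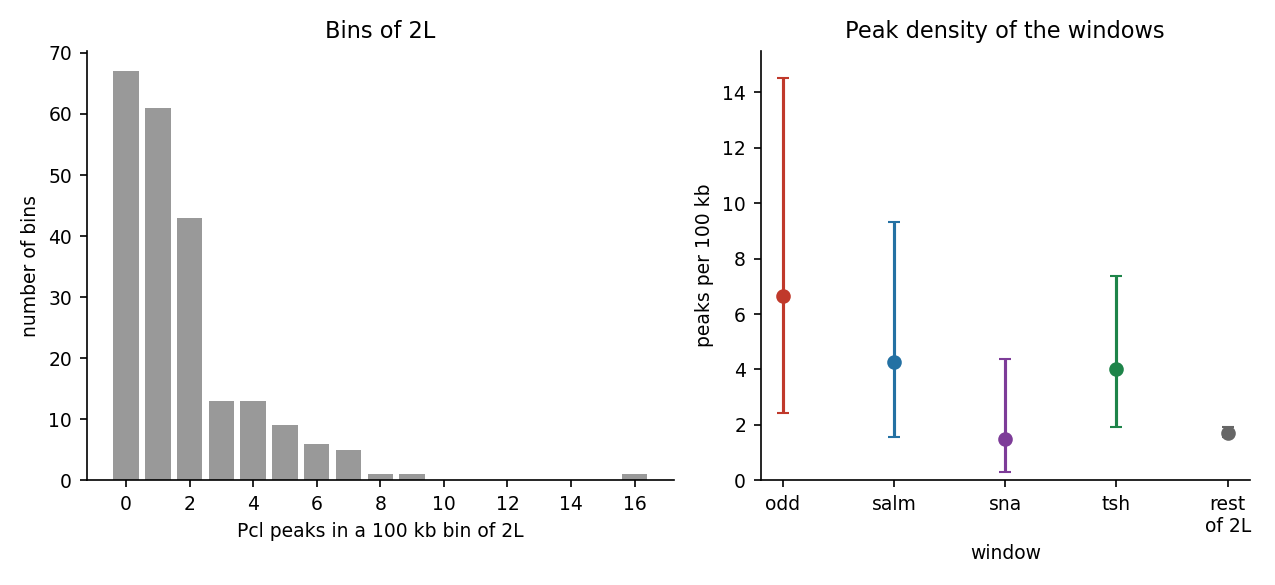
Left, number of 100 kb bins of 2L (y axis) by the Pcl peaks each holds (x axis). Right, peaks per 100 kb in each window and in the rest of 2L, with 95% exact Poisson intervals as bars. The odd window is highest at 6.67 and the sna window, at 1.5, is close to the 1.72 of the rest of the arm, with wide intervals for every window.

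Peak sizes and ranks also varied between the windows. The deposited score of a peak is the peak caller's value, which was used here only to rank peaks within the list, where rank 1 is the highest score. The highest-ranked peak of the odd window was at rank 82 of 2457, that of the salm window at 249, that of the tsh window at 265 and that of the sna window at 1794. The median rank was 805 in the odd window, 850 in the tsh window, 1435.5 in the salm window and 1891 in the sna window, against 1238 in the rest of 2L. Median widths were 1167.5 bp in the odd window (range 749 to 2196), 902 bp in the tsh window (640 to 1545), 844.5 bp in the salm window (647 to 1241) and 841 bp in the sna window (721 to 913). The rest of 2L had a median width of 824 bp with quartiles of 719 and 1040.5 bp. As deposited, the median width of the odd window was above that upper quartile, and those of the other windows were inside the quartiles. With gaps under 1 kb joined, neighbours of 1314 and 1386 bp became 1 peak and the odd median was 1021 bp. This is below the 1040.5 bp of the unjoined list, but quartiles of the joined list are not given here. Its place above the quartile may thus depend on how peaks are split. The odd median was 1350 bp in the upper 50% of the list and 1350 bp with edges 10 kb inwards. With edges 20 and 50 kb outwards it was 1314 and 1246 bp. The ranges of width of all 4 windows overlap, and those of rank overlap except that no peak of the sna window reached the median rank of any other window.

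Among all peaks, 10% were in the top 10% by score (score of at least 166, by construction of that class), and of the peaks on 2L 6.7% were. The members in that class were 2 of 25 (8.0%, 95% exact binomial interval 0.984 to 26.0), against 6.61% of the peaks of 2L outside the windows. Both were in the odd window. The highest peaks of the salm and tsh windows, with scores of 164.85 and 159.67, fell just short. In the widest 25% of the list, where 25% of all peaks and 24.5% of those on 2L lie, were 6 of the 25 members (24.0%, interval 9.36 to 45.1), against 24.5% of the 2L peaks outside the windows. Of these 6, 3 were in the odd window, 2 in the salm window, 1 in the tsh window and 0 in the sna window. With the threshold taken from 2L alone, 4 of the 25 members (16%, interval 4.54 to 36.1) were in the top 10% of the arm, which holds 39 of its 388 peaks. The share of high peaks thus depended on the threshold, and each of these intervals includes the share of the arm. The intervals treat neighbouring peaks as independent. At the low end, 10 of the 25 members scored below 60, near the lowest score of the list of 50.01, as did 26% of all peaks. These 10 were 2 peaks each in the odd, salm and sna windows and 4 in the tsh window. The upper 50% of the list by score (50% of all peaks, by construction) held 12 of the 25 members.

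**Figure D2:**
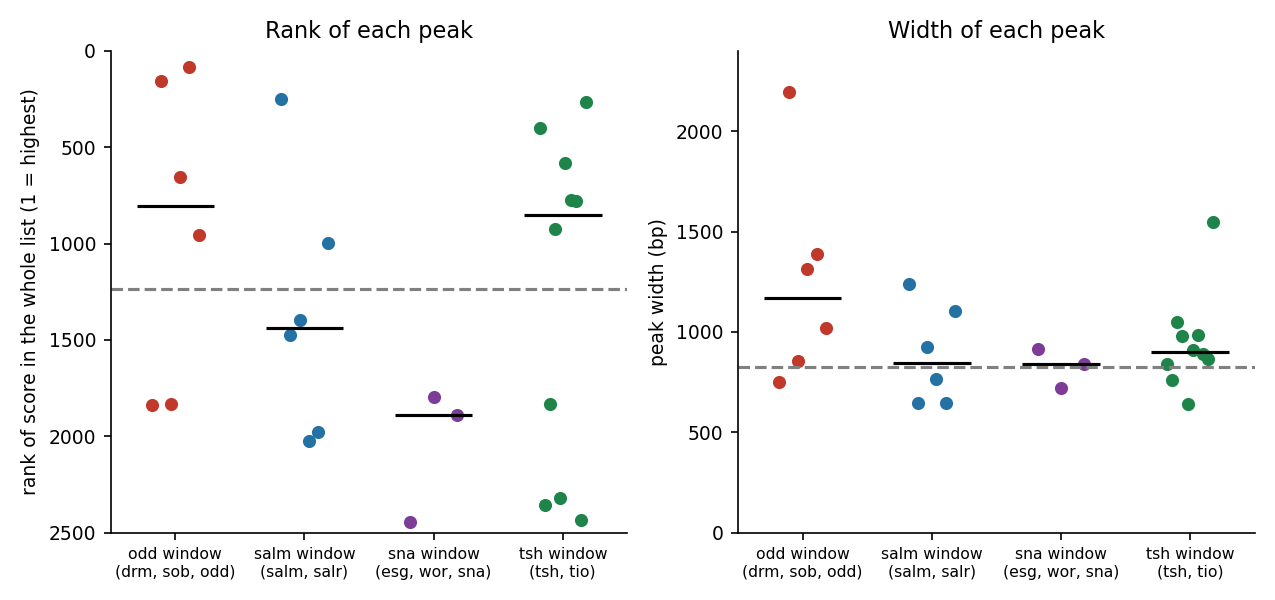
Rank of the score in the whole list (left, 1 at the top) and peak width in bp (right) of each of the 25 peaks by window. Black bars are window medians and dashed lines the medians of the rest of 2L; the 3 peaks of the sna window lie below the dashed line of rank.

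Pcl peaks of the odd window included the highest and the widest peak of all 25. The highest stood at 3606344 to 3607729 and scored 374.07 with a width of 1386 bp, which placed it at rank 82 of the list and 9 of 2L. It was preceded after 202 bp by a peak at 3604828 to 3606141 (score 101.56, width 1314 bp, rank 655). Only 6 of the 387 gaps between neighbouring peaks of 2L were of 202 bp or less, so these neighbours nearly touch, and with gaps under 1 kb joined they count as a single peak. The widest member was at 3578178 to 3580373, with a width of 2196 bp, a score of 232.07 and rank 155 of the list. The other 3 peaks of the window were lower. Scores were 59.51 at 3557707 to 3558455 (width 749 bp) and 59.62 at 3594726 to 3595582 (width 857 bp). The peak at 3638814 to 3639834 scored 83.17, was 1021 bp wide and had its centre 0.677 kb inside the end of the window. The odd window was thus a mixture of 2 peaks in the top 10% of the list and 2 far down it (ranks 1834 and 1839).

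Pcl binding around the odd window went on past both edges. Within 50 kb before its start lay 2 peaks, at 3538178 to 3540444 (score 176.12, width 2267 bp, rank 227) and at 3518253 to 3519498 (score 100.27, width 1246 bp). The first of these was wider than any of the 25 members and its centre lay 10.7 kb outside the edge. Within 50 kb after its end lay 3 peaks, at 3659594 to 3660752 (score 195.0, rank 192), 3661827 to 3663629 (score 133.67, width 1803 bp) and 3666896 to 3667695 (score 58.6). Moving the edges out by 50 kb raised the count from 6 to 11 peaks, so the count of this window depends on where its edges are drawn.

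The salm window held a single high peak and 5 lower ones. The high peak was at 11436267 to 11437507, with a score of 164.85, a width of 1241 bp and rank 249. Its neighbour after 1318 bp, at 11438826 to 11439472, scored 67.05 and was 647 bp wide. The next in score, at 11524534 to 11525636, scored 81.42 with a width of 1103 bp (rank 995). These 3 peaks show that the leading peak stood well above the others in rank (249, against 995 for the next). The remaining peaks were at 11461643 to 11462566 (score 68.32, width 924 bp), 11504863 to 11505509 (57.24, 647 bp) and 11497024 to 11497788 (56.59, 765 bp). In the list restricted to its upper 50% by score, only 2 of the 6 peaks were left.

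A second peak of like rank lay outside the salm window. Of 4 peaks within 50 kb before its start, the one at 11358535 to 11359512 scored 169.2 (width 978 bp, rank 240), slightly higher than the highest peak inside. Its centre lay 41.0 kb before the edge. The peaks just outside the start were at 11398596 to 11399396 (score 75.73), 1.0 kb from the edge, and at 11384982 to 11385752 (score 70.44). After the end of the window a single peak followed within 50 kb, at 11581685 to 11582303 (score 60.8). The salm window and its flank thus had a pair of peaks at ranks 240 and 249 some distance apart, of which the rule took in 1.

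The window of esg, wor and sna had few and low peaks. Its highest peak, at 15350321 to 15351041, scored 60.45 with a width of 721 bp (rank 1794), the second, at 15499104 to 15499944, scored 58.56 with a width of 841 bp (rank 1891), and the third, at 15321707 to 15322619, scored 50.1 with a width of 913 bp (rank 2444.5). All 3 ranked in the lower part of the list, and 73.0% of the way down it before the first appeared. The third is among the lowest of the list, with 0.448% of all peaks scoring lower. The second had its centre 0.476 kb inside the end of the window and dropped out when the edges were moved in by 10 kb. Between the first and the second lay 148 kb without a peak, a gap that 43 of the 387 gaps of 2L (11.1%) reached or exceeded. No peak lay within 50 kb of either edge: the nearest were 68.4 kb before the start (score 57.13) and 153 kb after the end (score 78.31). Binding below the authors' cut-off is not listed, so the low number does not show that Pcl was absent from this stretch.

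The window of tsh and tio held the most peaks, 9 of them in its first part and 1 near its end. The 9 spanned 75.5 kb. The highest of these, at 21801052 to 21801892, scored 132.45 with a width of 841 bp (rank 401). A group of 4 followed at 21868835 to 21876569, within 7.74 kb and with gaps of 1783, 795 and 1505 bp. Its peaks had scores of 108.32, 93.45, 93.42 and 50.17 in map order and widths of 912, 984, 892 and 864 bp. The first 3 of the group, at ranks 581, 776 and 777, were alike in rank and width, and the fourth was close to the cut-off. Between the highest of the 9 and the group were 4 further peaks. The highest of them, at 21828351 to 21829329, scored 84.81 over 979 bp. The other 3 scored 51.34 (21818262 to 21819024), 59.69 (21821163 to 21822209) and 51.99 (21853359 to 21853998), all under 60.

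The last peak of the tsh window stood apart from the other 9. It was at 22022437 to 22023981, with a score of 159.67, a width of 1545 bp and rank 265, the highest score and the largest width of the window. A gap of 146 kb separated it from the group of 4, a distance that 45 of the 387 gaps of 2L (11.6%) reached or exceeded. It was also the last peak of 2L in the list, and the 10 peaks of this window were the last 10 of the arm. The nearest peak before the window was 63.1 kb from its start (score 66.16). With the edges moved in by 10 kb this peak dropped out and the best rank of the window became 401.

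**Figure D3:**
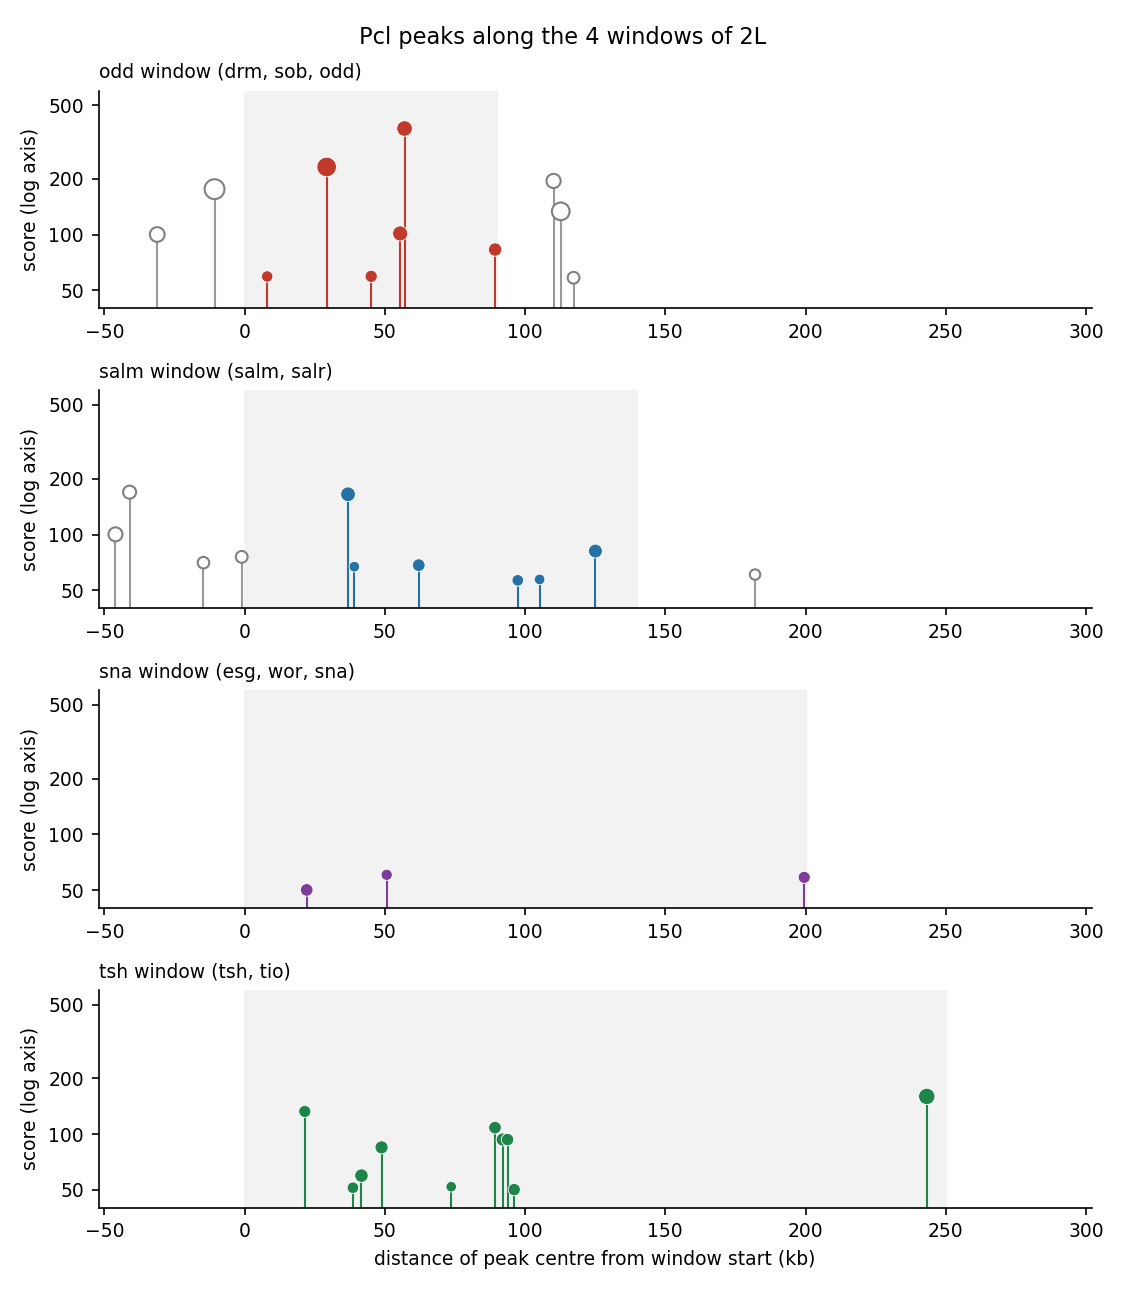
Peaks along each window, with distance of the peak centre from the window start in kb (x axis) and deposited score (y axis, log scale); point area follows peak width. Filled points lie in the window (grey band) and open points within 50 kb outside it; high open points flank the odd and salm windows, and none flank the sna and tsh windows.

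The windows also differed in how the peaks were spaced. With neighbouring peaks joined into clusters at gaps under 10 kb, the odd window had 4 clusters, the salm window 4, the sna window 3 and the tsh window 5. Of the 25 peaks, 14 shared a cluster with another peak, namely 3 in the odd window, 4 in the salm window, 7 in the tsh window and 0 in the sna window. Joined in the same way, 187 of 363 peaks in the rest of 2L and 1448 of 2457 in the whole list did so. Sharing a cluster was thus common throughout the list and not particular to the windows. The largest cluster, with 4 peaks, was the group in the tsh window. In the odd window 3 peaks formed a cluster of 13.0 kb from 3594726 to 3607729 that contained the highest peak. The median gap within windows was 14.8 kb over 21 gaps, against 23.3 kb over all gaps of 2L, which include the 21. Gaps that cross a window edge were left out of the 21, and none of these can exceed the length of its window. This by itself lowers the median within windows, so the medians do not show that spacing was tighter there. Gaps under 1 kb numbered 2 of 21 in the windows (1 in the odd and 1 in the tsh window) and 29 of 387 on the arm (7.49%).

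Peaks covered 7523 bp of the odd window (8.36%), 5327 bp of the salm window (3.81%), 9467 bp of the tsh window (3.79%) and 2475 bp of the sna window (1.24%). In the rest of 2L, 1.67% of the span was covered. By this measure, which depends little on how a bound region is split into peaks, the odd window again ranked first and the sna window last, while the salm and tsh windows were alike.

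Wider peaks had higher scores in 3 of the 4 windows. Spearman's rho was 0.94 in the odd window (6 peaks), 0.81 in the salm window (6) and 0.49 in the tsh window (10), whereas in the sna window the widest of the 3 peaks scored lowest (-1.0). It was 0.68 across the 25 members and 0.67 across the whole list, given as a description, since the points share 1 list and a peak caller that derives both values from the same reads. A score in the upper 50% did not always come with a wide peak. The peak of the tsh window at 21801052 to 21801892 ranked 401 by score, yet its width of 841 bp was near the median of 830 bp of the whole list. The highest peak of the odd window (374.07, 1386 bp) was narrower than the second (232.07, 2196 bp).

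**Figure D4:**
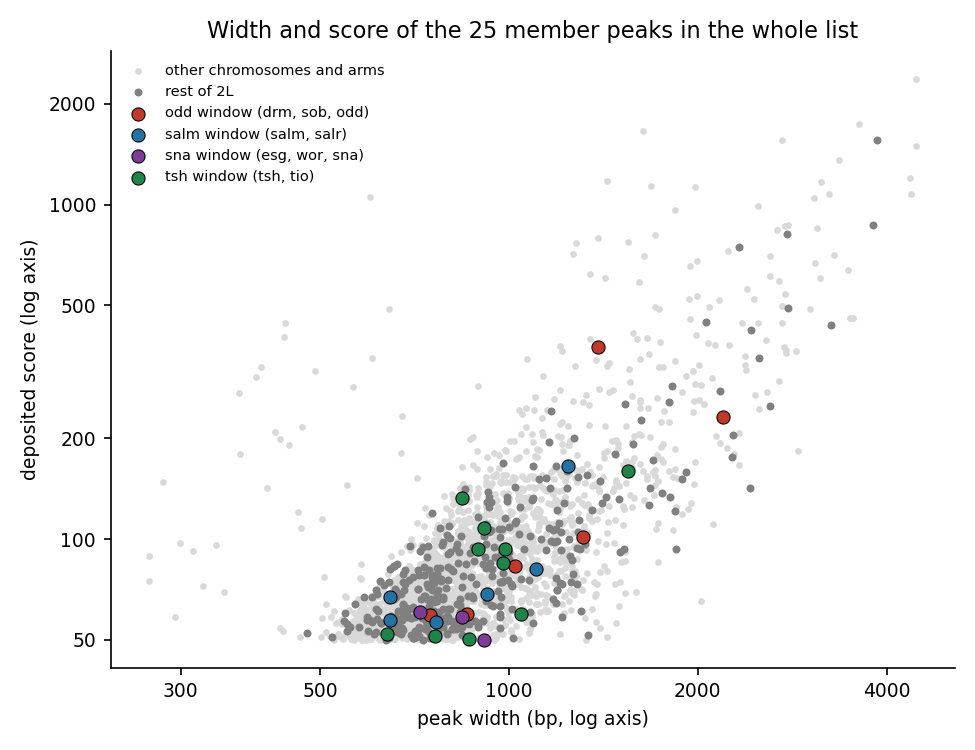
Width (x axis, bp, log scale) and deposited score (y axis, log scale) of all 2457 peaks, with the 25 members in colour, the rest of 2L in dark grey and all others in light grey. The members follow the cloud of the list, 2 peaks of the odd window stand highest among them at 374.07 and 232.07, and the 3 peaks of the sna window lie low in it, at scores of 50.1 to 60.45.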

How the data were processed

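ChIP-seq of Pcl was done in 1 ChIP sample group of embryos of 0 to 8 h, with input chromatin as control. Per the submitters' processing notes, Bowtie and the build BDGP5 were used, and per the file headers MACS called the peaks. Versions, settings and how the 3 replicates were combined are not stated in the labels or the file. The score in column 5 of the deposited list is the authors' peak caller value, of unstated scale, with a lowest value of 50.01. Positions in the deposited list are other values, in bases. Starts were converted to count from 1. Peaks were assigned to windows by their centre, ranked by score over all 2457 peaks, and described with Python 3.11.15, pandas 2.3.3 and SciPy 1.17.1. Clusters join gaps under 10 kb. Assignment and joining at gaps under 1 kb were tested on simulated data and recovered the truth in 50 of 50 lists. No simulated peak lay near a window edge, so the assignment of such peaks was not tested, nor was joining at 10 kb. Intervals are exact binomial or Poisson at 95%. In windows with up to 10 peaks all are named. The windows, genes and lists were chosen with earlier results of these data known. Alternatives were stricter lists, joining, other edges and other thresholds. Bins of each window's length and edges 50 kb outwards were chosen after seeing the data. Transcription starts, motifs and proteins of the named genes were not analysed here.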

Additional observations from a re-analysis of the deposited data

How the results depend on the processing

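Of 163 recomputed values, 138 stayed within 1.5 times of the reported one (counts, lengths, best ranks) or inside the exact interval of a median. For the odd and salm windows, with 6 peaks each, that interval was the whole range. For the sna window the range was used, since 3 peaks allow no 95% interval. Large shifts of these medians could thus count as unchanged: with edges 10 kb inwards the median rank of the odd window went from 805 to 405. Some values could not move at all. The upper 50% of the list keeps the best rank of any window that still has peaks in it. Taking peaks with any base inside a window gave the same peaks and so the same values. The 138 include such cases and are not a measure of how stable the results are.
In the upper 50% of the list the salm window kept 2 peaks covering 2344 bp in 2 clusters, the tsh window 6 peaks covering 6153 bp, and the sna window 0 peaks, 0 bp and 0 clusters; fewer peaks are listed by construction.
Joining gaps under 1 kb gave the sna window a median rank of 1659, since fewer peaks are ranked.
Edges 10 kb inwards left 2 clusters in the odd window, 1634 bp covered in the sna window and a best rank of 401 in the tsh window.
Edges 50 kb outwards gave 11 peaks, 14798 bp and 7 clusters in the odd window and 11 peaks, 9619 bp and 8 clusters in the salm window. The sna window then held 3 peaks and the tsh window 10. Among all peaks of these wider windows, 5 were in the top 10% by score and 11 in the widest 25%. These classes hold 6.7% and 24.5% of the peaks of 2L.
A cluster gap of 20 kb gave 2 clusters in the odd and 3 in the tsh window.
Of the 25 members, the top 5% held 1, the top 10% of 2L alone 4, and the widest 10% 3.
Without the odd window 0 of 19 members were in the top 10% and 3 of 19 in the widest 25%, and the density was 3.22 per 100 kb against 3.68 with it.
No replicate could be left out, and no paired analysis was possible because a single list combines the replicates. The list has no read counts, so binding that scored under the cut-off cannot be seen.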
